A study of Mus musculus with 24 samples.

Results

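Gja1 and Gja3 encode 2 connexins of the lens, connexin 43 and connexin 46. They were followed as single genes in a mouse RNA-seq series of 24 libraries. They were chosen by their symbols, and they are 2 of the 12611 genes in the count table. Lenses of CD1 mice were microdissected into lens epithelium and lens fiber at E14.5, E16.5 and E18.5 of embryonic life and at P0.5, just after birth. Each of the 8 combinations of tissue and stage held 3 biological replicates, and total RNA depleted of ribosomal RNA was sequenced. All mice were of 1 strain and carried no labelled allele or treatment. The labels do not say whether a replicate pooled lenses of several animals, or whether an epithelium and a fiber library came from the same animals.

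Connexins are membrane proteins that assemble in rings, and rings of neighboring cells dock to form gap junctions, channels that pass ions, second messengers and small metabolites. The lens has no blood supply within it, and its inner fiber cells depend on this coupling for the circulation of ions, water and nutrients. Connexin 43 is the classical connexin of the lens epithelium, while connexin 46 is a classical fiber connexin whose mutation causes cataract in mice and people.

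In the GENCODE M21 annotation of mm10 (GRCm38), Gja1 (ENSMUSG00000050953.10) lies on chromosome 10 from 56377330 to 56402513 on the plus strand. Its protein-coding sequence of 1146 bases lies wholly in exon 2 of 2, from 56387547 to 56388692. Gja3 (ENSMUSG00000048582.7) lies on chromosome 14 from 57034460 to 57058100 on the minus strand, and its coding sequence of 1251 bases also lies wholly in exon 2 of 2, from 57035663 to 57036913. No other annotated gene overlaps either gene. The stretches just upstream of their starts are shown because the levels of the genes moved in opposite directions between the tissues. They were taken from RefSeq for GRCm38.p6 and are written 5′ to 3′ in the direction of the gene, with bases that match a searched motif in capitals.
Gja1, chr10:56377050-56377299, plus strand: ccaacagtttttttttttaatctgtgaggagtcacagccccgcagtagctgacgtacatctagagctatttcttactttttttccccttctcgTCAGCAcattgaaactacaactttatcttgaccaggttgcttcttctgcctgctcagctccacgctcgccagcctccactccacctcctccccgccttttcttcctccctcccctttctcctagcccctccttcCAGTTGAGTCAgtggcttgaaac
Gja3, chr14:57058101-57058280, minus strand: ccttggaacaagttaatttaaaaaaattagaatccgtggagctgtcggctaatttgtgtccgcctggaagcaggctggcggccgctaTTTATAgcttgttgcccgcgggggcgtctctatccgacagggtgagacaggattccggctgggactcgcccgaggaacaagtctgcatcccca
The motifs were searched on both strands. The shares given are for windows of 250 bases, the length searched for Gja1. For Gja3 only 180 bases were searched, those upstream of both its RefSeq and its GENCODE start. A motif nearer the RefSeq start of Gja3 would not be seen. The AP-1 motif TGANTCA is in 6.75% of 32817 upstream windows of mouse genes, and Gja1 holds a match 19 bases upstream of its RefSeq start. The E-box CANNTG is in 66.2% of windows, and Gja1 holds one 23 bases upstream that shares letters with the AP-1 match. The Maf motif TGCTGA is in 16.1% of windows, and Gja1 holds one 157 bases upstream. The TATA box TATAAA is in 12.4% of windows, and Gja3 holds one, on the other strand, 163 bases upstream of its RefSeq start. Neither window held the heat shock element GAANNTTC, which is in 6.69% of windows, or the Sox motif ACAATG, which is in 10.7%. These matches describe letters and are not evidence of binding.

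The epithelium libraries held 7658794 to 11819117 counts and the fiber libraries 13010174 to 21617737. Rn45s, the ribosomal RNA precursor gene, took 28.9% of the counts of E18.5 fiber replicate 2 and 3.98% to 17.4% of the others, and that library differed from the other 2 of its group by a chi-square per degree of freedom of 250 and 334, against 15.1 between those 2. All 10 lens epithelium markers were lower in fiber and all 10 lens fiber markers were higher in fiber, as a mean of the 4 stages, so the tissue labels and the markers point the same way; Gja1 is itself 1 of the epithelium markers. Levels are given in CPM, the count relative to a library size that was scaled by TMM, a method that sets the bulk of genes level between libraries. Differences were tested with edgeR's quasi-likelihood test on the counts, and a gene passed when its adjusted p (Benjamini-Hochberg over the 12427 genes tested) was under 0.05 and its change at least 2-fold. In such bulk samples, fewer cells of a type and less RNA per cell cannot be told apart.

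Gja1 was an epithelium gene at every stage. In replicates 1 to 3 of epithelium its level was 171.7, 186.5 and 181.8 CPM for E14.5, 205.3, 216.5 and 237.5 for E16.5, 784, 806 and 908 for E18.5, and 714, 630 and 442 for P0.5. In fiber it was 12.4, 10.1 and 8.09 CPM for E14.5, 16.3, 8.23 and 9.71 for E16.5, 11.7, 14.9 and 13.1 for E18.5, and 12.7, 18.4 and 9.03 for P0.5. Every epithelium library lay above every fiber library. Ranges of the 2 tissues did not overlap for 78.5% of all genes at E14.5, 80.3% of them at E16.5, 83.2% of them at E18.5 and 82.8% of them at P0.5. As a mean of the 4 stages Gja1 was 31.1-fold lower in fiber (95% interval 26.6 to 36.4; log2 change -4.96 ± 0.11 SE; adjusted p = 8.15e-23, edgeR), against 22.2% of all genes tested that were called lower in this comparison. The log2 change was -4.13 at E14.5, where 19.4% of genes were called lower, and -4.28 at E16.5, where 20.4% were. It was -5.99 at E18.5, a 63.6-fold difference, and -5.44 at P0.5, where 24.2% and 24.5% of genes were called lower.

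Gja3 had the opposite distribution and was detected strongly in both tissues. In replicates 1 to 3 of fiber its level was 1449.5, 1551 and 1436 CPM for E14.5, 1777, 1829 and 1723 for E16.5, 2186, 2283 and 2165 for E18.5, and 2471, 2330.4 and 2500.2 for P0.5. In epithelium it was 226.8, 240.4 and 243.9 CPM for E14.5, 332.9, 343.0 and 299.6 for E16.5, 249.5, 250.01 and 231.0 for E18.5, and 296.6, 304.7 and 314.7 for P0.5. The 12 fiber libraries were all above the 12 epithelium libraries. Gja3 was 7.05-fold higher in fiber as a mean of the 4 stages (95% interval 6.72 to 7.39; log2 change 2.82 ± 0.03 SE; adjusted p = 2.09e-27, edgeR), where 15.7% of genes were called higher. By stage the difference was 6.24-fold at E14.5 and 5.46-fold at E16.5, then 9.08-fold at E18.5 and 7.97-fold at P0.5, with 14.0%, 14.6%, 17.4% and 17.5% of genes called higher.

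**Figure D1:**
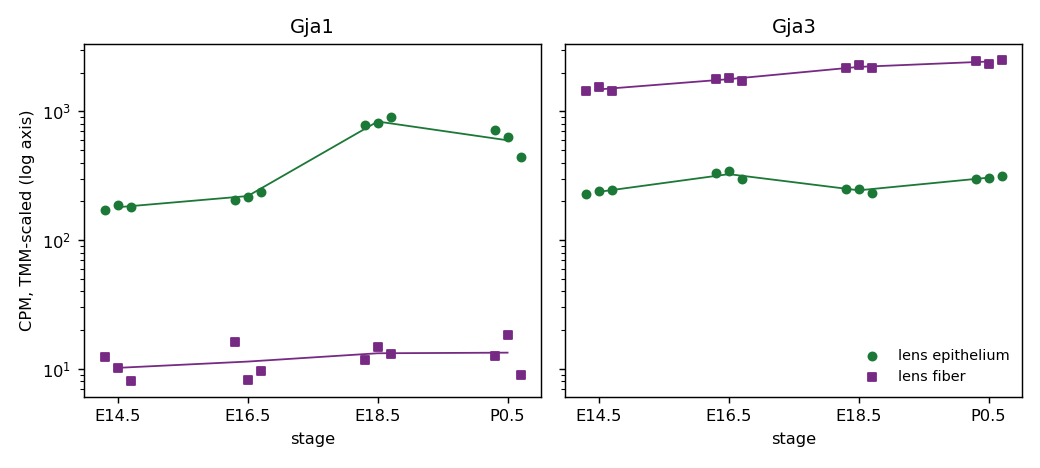
Levels of Gja1 (left) and Gja3 (right) in each of the 24 libraries, in TMM-scaled CPM on a log axis, by stage; points are libraries, side by side in the order of replicates 1 to 3, and lines join the means of 3. Gja1 in epithelium is no higher than 237.5 CPM up to E16.5 and no lower than 442 CPM from E18.5 on, while Gja3 is at 1436 CPM or more in every fiber library.

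The size of both differences depended on how libraries were scaled. The median of all genes in the comparison of fiber with epithelium was -0.03 (log2) with TMM and -1.23 with the plain library size. It was -0.70 with the crystallin genes left out of the library size. With plain library size the mean log2 change was -6.17 for Gja1 and 1.61 for Gja3, and with a library size from which the crystallin genes were left out it was -5.64 and 2.14. Both genes passed under each scaling, at all 4 stages.

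**Figure D2:**
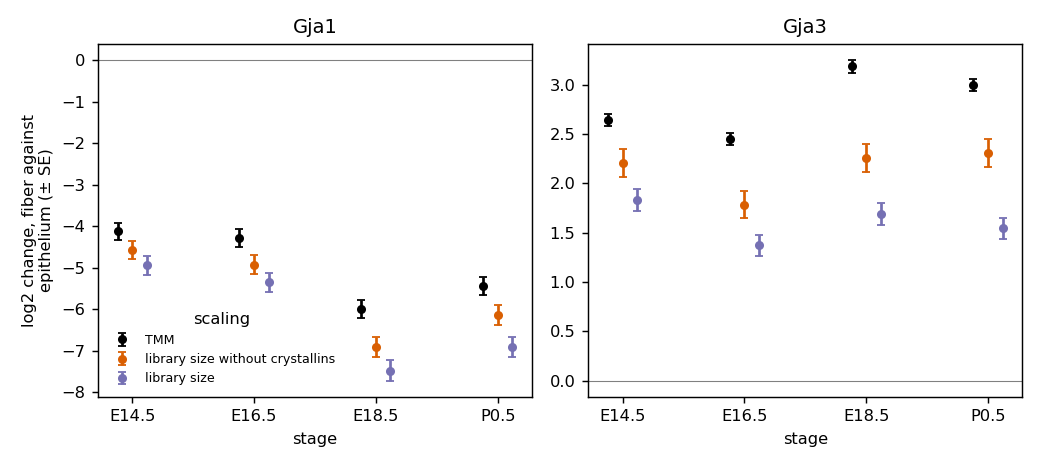
Log2 change of Gja1 (left) and Gja3 (right) in fiber against epithelium at each stage, with the standard error, under 3 scalings of the libraries. Every point for Gja1 lies below 0 and every point for Gja3 above it; the scaling moves both genes the same way, and the vertical axes differ between the panels.

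A ratio of the 2 genes within 1 library does not depend on the scaling. Counts were divided by the length of the transcript with the longest coding sequence (3071 bases for Gja1 and 2766 for Gja3), so that the ratio compares levels per kilobase. In epithelium, Gja3 stood at 1.43 to 1.49 times the Gja1 level at E14.5 and at 1.40 to 1.80 times at E16.5, then at 0.282 to 0.353 times at E18.5 and 0.461 to 0.791 times at P0.5. The order of the 2 connexin genes in epithelium was therefore Gja3 above Gja1 in all 6 libraries of the earlier stages and Gja1 above Gja3 in all 6 of the later ones. In fiber the ratio was 121 to 307 over the 12 libraries, and the 4 stages overlapped. The lowest fiber ratio fell on E16.5 replicate 1, where Gja1 rested on 164 counts, and the highest on P0.5 replicate 3, where it rested on 86.

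**Figure D3:**
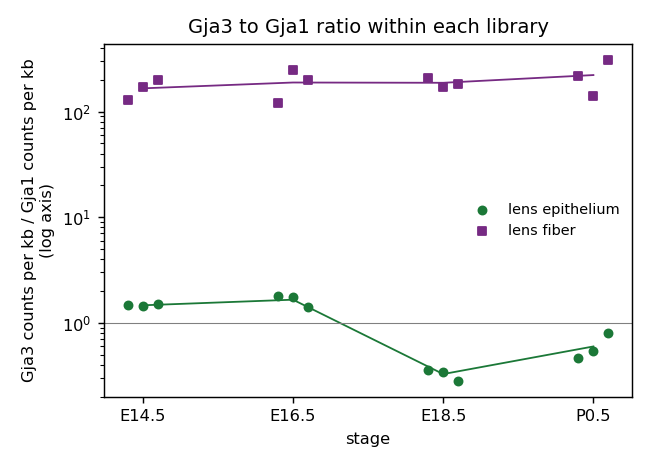
Ratio of Gja3 to Gja1 counts per kilobase of transcript within each library, by stage, on a log axis; points are libraries, lines join the means of 3, and the grey line marks a ratio of 1. Epithelium lies above 1 at E14.5 and E16.5 and below 1 at E18.5 and P0.5, while fiber lies between 121 and 307.

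In epithelium Gja1 rose in a single step. From E14.5 to P0.5 it was 3.31-fold higher (95% interval 2.59 to 4.22; adjusted p = 7.31e-09, edgeR), where 10.1% of genes were called higher. From E16.5 to E18.5 it rose 3.79-fold (95% interval 2.97 to 4.84; adjusted p = 3.94e-09, edgeR), where 6.75% of genes were called higher, and the ranges of the 2 stages did not overlap, as for 46.0% of genes; those of E14.5 and E16.5, and those of E18.5 and P0.5, did not overlap either, as for 38.4% and 31.0% of genes. The change from E14.5 to E16.5 did not pass (log2 change 0.29; adjusted p = 0.221, edgeR; 1.71% of genes called higher). From E18.5 to P0.5 the level stood 1.40-fold lower (log2 change -0.48; adjusted p = 0.0469, edgeR), short of the 2-fold limit, where 0.426% of genes were called lower. Leaving out 1 library at a time kept the step from E16.5 to E18.5 at a log2 change of 1.86 to 1.98.

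Markers of eye tissues that border the lens rose in the same step, in which 6.75% of all genes were called higher. All 7 pigment cell markers in the table rose from E16.5 to E18.5, among them Tyrp1, an enzyme of melanin synthesis (36.8-fold), and their summed level was 5.89 to 12.8 CPM in the E16.5 libraries and 187 to 224 in those of E18.5. Of 10 ciliary margin markers 9 rose, among them Optc, which encodes the matrix protein opticin (45.4-fold), and the transcription factor gene Zic4 (17.2-fold); their sum was 162 to 247 CPM before and 935 to 1149 after. Further, 6 of 10 retina markers, 3 of 6 mural cell markers and 3 of 10 endothelium markers rose too, with sums of 916 to 957 CPM before and 1036 to 1085 after for retina, 282 to 303 and 392 to 455 for mural cells, and 278 to 347 and 393 to 545 for endothelium. The retina markers Six3 and Sfrp1 did not rise (log2 changes 0.10 and -0.07). In the fiber libraries the retina sum was 1779 to 2653 CPM and the pigment sum 86.5 to 114, both above those of epithelium up to E16.5. The 2 sums are therefore not particular to tissue that borders the lens. The pigment sum in fiber does not speak for each of its markers. Mlana had no count in the fiber libraries of E14.5 and E16.5. The standard error of the log2 change between these fiber stages was 0.13 for Mitf, and 0.55 to 1.42 for Pmel, Dct, Rlbp1, Tyrp1 and Tyr. Other lists were mixed. The cornea marker Pkp1 rose (18.1-fold) and Perp did not, and of the macrophage markers only Mrc1 and Csf1r rose. The mesenchyme markers Lum, Dcn and Col3a1 fell, and the rest of that list did not pass. None of the pigment or ciliary margin markers was without counts in the epithelium libraries of any stage. The 9 lens epithelium markers other than Gja1 summed to 2802 to 2898 CPM before this step and 2747 to 3206 after it, so their sum overlapped where Gja1 did not. The single markers went both ways. Aqp1 rose (14.9-fold) and Sfrp2 fell (3.31-fold), while the others did not pass (log2 changes -0.28 to 0.83). At P0.5, replicate 3, which had the lowest Gja1 level of that stage (442 CPM), also had the lowest pigment sum (91.1 CPM, against 193 and 178 in replicates 1 and 2) and the lowest ciliary margin sum (807 CPM, against 992 and 913). The part of these other cells in the level of Gja1 was not tested.

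**Figure D4:**
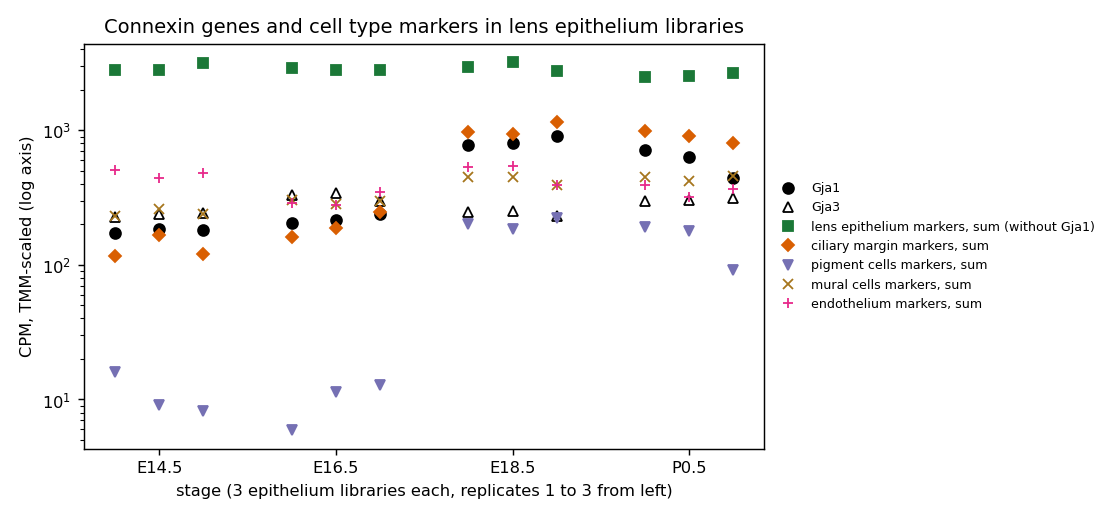
Levels of Gja1 and Gja3 and the summed levels of 5 marker lists in the 12 epithelium libraries, in TMM-scaled CPM on a log axis, ordered by stage and, within a stage, by replicate 1 to 3 from the left. From E16.5 to E18.5 Gja1, the ciliary margin sum and the pigment sum move up together, whereas Gja3 and the sum of lens epithelium markers other than Gja1 do not.

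Gja3 in epithelium went up and down by small amounts that were well resolved. Its log2 change was 0.46 from E14.5 to E16.5 (adjusted p = 9.73e-06), -0.42 from E16.5 to E18.5 (adjusted p = 9.48e-06) and 0.33 from E18.5 to P0.5 (adjusted p = 0.00127, all edgeR). None reached 2-fold, and from E14.5 to P0.5 the level stood 1.29-fold higher. A test at adjusted p alone called 22.7%, 30.8% and 13.3% of genes in these 3 steps. In the order of levels, E16.5 and P0.5 overlapped with each other, as did E18.5 and E14.5, and the first pair lay above the second without overlap. These pairs were drawn from the levels of Gja3 themselves. Ranges did not overlap for 38.4% of all genes between E14.5 and E16.5, for 46.0% between E16.5 and E18.5 and for 31.0% between E18.5 and P0.5. The sum of the 10 lens fiber markers in these libraries, most of it the crystallin gene Cryaa, lay higher for E16.5 (14085 to 16631 CPM) and P0.5 (12549 to 18363) than for E18.5 (10739 to 11446) and E14.5 (8229 to 10504), without overlap. Without Cryaa the sums overlapped, at 2146 to 2916 CPM for E16.5, 1875 to 2822 for P0.5, 1846 to 2030 for E18.5 and 1597 to 2096 for E14.5. The single markers were mixed. From E16.5 to E18.5, where Gja3 stood lower, Mip, Crybb3, Cryaa and Lim2 stood lower too (log2 changes -0.48 to -0.46), whereas the other 6 stood higher, of which Birc7 (1.49) and Dnase2b (1.03) rose. None of the 10 was without counts in any epithelium group. Their part in the epithelial level of Gja3 was not tested.

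The epithelial level of Gja3 was a larger fraction of its fiber level than for the fiber markers set beside it here, except Crygs at E14.5. Gja3 in epithelium was 11.0% to 18.3% of its fiber level, by stage. Mip, the major intrinsic protein of fiber membranes, was at 1.57% to 2.83%. Bfsp1, a beaded filament protein, was at 0.822% to 1.81%, and Lim2, a fiber membrane protein, at 2.49% to 4.70%. Crygs, a crystallin gene, was at 16.8% at E14.5 and at 1.66% to 6.84% at the later stages. In the other direction, Gja1 in fiber was 1.59% to 5.66% of its epithelial level, Cdh1, which encodes E-cadherin, was at 2.73% to 6.17%, and Foxe3, a transcription factor gene of the lens epithelium, was at 5.71% to 9.15%.

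In fiber, Gja3 stood higher at each later stage on the TMM scale, and no change of Gja1 passed the test. Gja3 was 1.65-fold higher at P0.5 than at E14.5 (95% interval 1.51 to 1.80; log2 change 0.72; adjusted p = 9.14e-10, edgeR), short of the 2-fold limit, and the ranges of neighboring stages did not overlap. That was so for 35.1% of genes from E14.5 to E16.5, for 38.2% from there to E18.5 and for 24.8% from there to P0.5, and a test at adjusted p alone called 54.5% of genes over the whole course. By step, the log2 change of Gja3 was 0.26 from E14.5 to E16.5 (adjusted p = 0.00308, edgeR) and 0.32 from E16.5 to E18.5 (adjusted p = 0.000467, edgeR). From E18.5 to P0.5 it was 0.14 (adjusted p = 0.176, edgeR), so this step was not called even without the 2-fold limit. With plain library size the log2 change of Gja3 from E14.5 to P0.5 was 0.17 (adjusted p = 0.158, edgeR). The 3 P0.5 libraries then lay at 1351 to 1409 CPM, above the other 9 at 1009 to 1335, which overlapped between stages; the lowest was E18.5 fiber replicate 2, the library rich in Rn45s. Without that library the plain library size gave 0.17 (adjusted p = 0.0235, edgeR), and with Rn45s left out of the library size it was 0.14 (adjusted p = 0.0241, edgeR). Gja1 in fiber rested on 86 to 231 counts a library. Its log2 change from E14.5 to P0.5 was 0.41 (adjusted p = 0.177, edgeR), its 95% interval ran from 0.917-fold to 1.92-fold, and all 4 stages overlapped. The 9 other epithelium markers summed to 585 to 631 CPM in the E14.5 fiber libraries and 392 to 452 at P0.5.

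The difference between the tissues widened from E14.5 to P0.5 for Gja1. The log2 change from E14.5 to P0.5 was lower in fiber than in epithelium by 1.32 ± 0.30 SE for Gja1 (value -1.32; adjusted p = 0.00119, edgeR interaction test), a call that 7.92% of genes shared in that direction. For Gja3 it was higher in fiber by 0.35 ± 0.09 SE (adjusted p = 0.0019, edgeR interaction test), below 2-fold, where adjusted p alone called 42.0% of genes, but the sign depended on the scaling. With plain library size it was -0.29 (adjusted p = 0.0938, and 0.00864 without E18.5 fiber replicate 2), and with Rn45s left out of the library size it was -0.20 (adjusted p = 0.0297, all edgeR).

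The other reported connexin genes and the pannexin genes, which encode related channel proteins, make a list of 9 with Gja1 and Gja3. In fiber, as a mean of the 4 stages, 3 were higher (Gja3, Gje1 and Gjb6), 3 were lower (Gja1, Gja4 and Gjc1), and 3 did not pass (Panx1, Panx2 and Gja5). Of all genes, 15.7% were called higher and 22.2% lower. The median log2 change of the 9 was -0.29 against -0.03 for all genes. With plain library size 6 of the 9 were lower, Panx1, Panx2 and Gja5 included, where 7423 of the 12427 genes tested were called lower. The library size without crystallins gave 4 lower, where 4841 of all genes were. Gje1, which encodes a small lens connexin, was 65.3-fold higher in fiber (log2 change 6.03; adjusted p = 2.47e-26, edgeR). Its mean in fiber was 1273 ± 50.1 CPM (SD, n = 3) for E14.5, 1093 ± 90.2 for E16.5, 695 ± 75.2 for E18.5 and 772 ± 36.0 for P0.5. In epithelium it was 30.3 ± 6.004 CPM for E14.5, 19.0 ± 5.49 for E16.5, 7.59 ± 0.48 for E18.5 and 9.25 ± 1.58 for P0.5, so Gje1 stood lower at the later stages in both tissues while Gja3 in fiber stood higher. In epithelium Gje1 fell from E14.5 to P0.5 (log2 change -1.71; adjusted p = 6.26e-09, edgeR), where 3.21% of genes were called lower. Per kilobase Gje1 was above Gja3 in the fiber mean at E14.5 and E16.5 and below it at E18.5 and P0.5.

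The remaining members of the family were low. Gjb6, which encodes connexin 30, had 8 counts in all over the 12 epithelium libraries, 7 of which had none, and 310 over the 12 fiber libraries. In fiber it rose 6.32-fold from E14.5 to P0.5 (adjusted p = 3.29e-06, edgeR), from 23 to 116 counts over 3 libraries. Gja4, a connexin gene of blood vessels, stood at 3.49 to 6.85 CPM in epithelium and at 0.00 to 0.496 in fiber, where 3 of 12 libraries had none. Gjc1, which encodes connexin 45 and is also known from vessels, stood at 22.04 to 32.2 CPM in epithelium and 2.39 to 4.90 in fiber. The 10 endothelium and 6 mural cell markers were all lower in fiber as well, with sums of 278 to 545 CPM and 233 to 461 CPM in epithelium against 21.8 to 47.3 and 29.0 to 56.6 in fiber, and their part in Gja4 and Gjc1 was not tested. Panx1 stood 1.68-fold lower in fiber as a mean of the stages and fell in fiber from E14.5 to P0.5 (log2 change -1.25; adjusted p = 2.51e-07, edgeR), where 5.24% of genes were called lower.

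**Figure D5:**
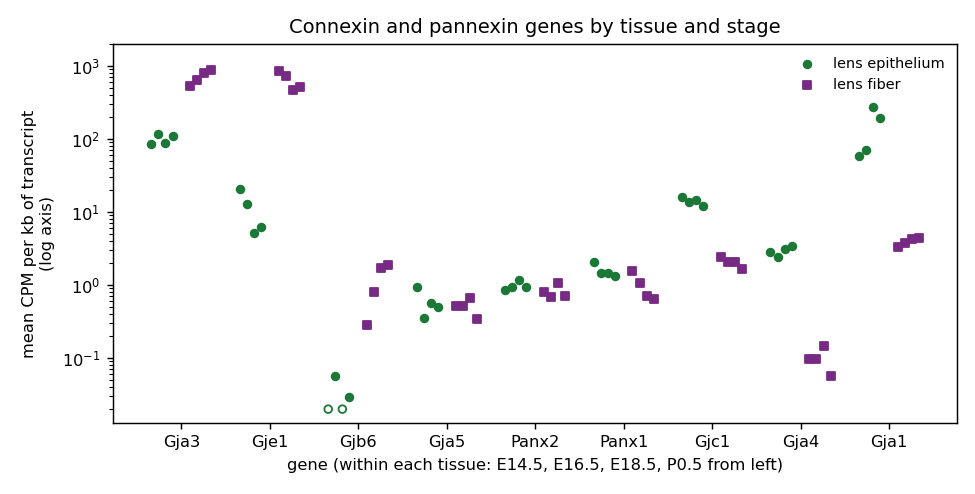
Mean level of 9 connexin and pannexin genes per kilobase of transcript, in TMM-scaled CPM on a log axis; for each gene the 4 epithelium stages stand on the left and the 4 fiber stages on the right, E14.5 to P0.5. Open circles for Gjb6 mark groups with no count, drawn at the bottom. Gja3 and Gje1 are the highest of these genes in fiber and Gja1 and Gja3 in epithelium.

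Of 43 genes whose products bind, anchor or regulate gap junctions, 39 were in the table, and their direction between the tissues was mixed. In fiber 10 were higher (25.6%, against 15.7% of all genes), 7 were lower (17.9%, against 22.2%) and 22 did not pass, with a median log2 change of 0.27 against -0.03 for all genes. Scaled by plain library size 5 were higher and 18 lower (median -0.94). Of the 12427 genes tested, 587 were then called higher and 7423 lower (median -1.23). The library size without crystallins gave 7 higher and 11 lower, where 880 and 4841 of all genes were called (median -0.70). The highest changes were those of Mip (log2 change 5.51), the kinase gene Prkca (4.43), Gsn, which encodes the actin-severing protein gelsolin (2.88), and Pkp2, which encodes a plakophilin of cell junctions (2.56). Tjp1, which encodes ZO-1, a scaffold that binds the tails of connexins, was 5.18-fold higher in fiber (log2 change 2.37; adjusted p = 1.79e-26, edgeR), at 1645 ± 78.5 CPM against 345 ± 19.0 at E16.5 and 1674 ± 39.6 against 261 ± 11.3 at P0.5 (SD, n = 3). The lowest were the caveolin genes Cav2 (-5.48) and Cav1 (-5.08), the tight junction gene Ocln (-5.21) and the E-cadherin gene Cdh1 (-4.67). Mip is also 1 of the lens fiber markers, and Cdh1 is 1 of the lens epithelium markers. Ocln rested on 0 to 3 counts in each fiber group of 3 libraries, so the size of its change is uncertain. Cdh2, the N-cadherin gene, did not pass at a log2 change of 0.27, with 594 ± 9.67 CPM in epithelium and 654 ± 12.5 in fiber at E14.5.

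The partners were also compared between stages, and nothing is read about the list from counts this small. In epithelium 2 of 39 rose from E14.5 to P0.5 (5.13%, against 10.1% of all genes), the tight junction genes Ocln (log2 change 6.04) and Cldn1 (4.51). Both rose in the step from E14.5 to E16.5 (2.46 and 1.61), in which Gja1 did not pass, and again in the step from E16.5 to E18.5 (3.65 and 3.16), in which Gja1 rose with the pigment and ciliary margin markers. Ocln had 5 counts over the 3 E14.5 epithelium libraries and 29 over those of E16.5, so the sizes of its changes from E14.5 are uncertain. In fiber 1 of 39 rose from E14.5 to P0.5 (2.56%, against 6.69% of all genes), the kinase gene Mapk3 (1.21). At adjusted p alone 25 of 39 differed over this course in epithelium (64.1%, against 58.8% of all genes) and 22 in fiber (56.4%, against 54.5%).

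Of 14 genes of the ion, water and nutrient path that gap junctions join, 12 were in the table. In fiber 2 were higher, the water channel genes Mip and Aqp5 (log2 change 3.88), and 7 were lower (16.7% and 58.3% of the 12), where 15.7% and 22.2% of all genes were called higher and lower. The lower ones were led by the potassium channel gene Kcnj13 (-4.44), the water channel gene Aqp1 (-3.69), the glucose transporter gene Slc2a3 (-3.51) and the amino acid transporter gene Slc1a5 (-2.24). The median was -1.93 against -0.03 for all genes. Mip is also 1 of the lens fiber markers, and Aqp1 and Slc2a1, both in this list, are lens epithelium markers. The direction of these genes between the tissues is therefore no separate result. Scaled by plain library size 2 of the 12 were higher and 9 lower (median -3.14). Of the 12427 genes tested, 587 were then called higher and 7423 lower (median -1.23). The library size without crystallins gave 2 higher and 7 lower (median -2.61), where 880 and 4841 of all genes were called (median -0.70). In epithelium 5 rose from E14.5 to P0.5 and Slc2a3 fell (-1.42), where 10.1% and 3.21% of all genes were called higher and lower. Those that rose included Kcnj13 (5.35), Aqp1 (4.49), Atp1b1, a sodium pump subunit (2.51), and Aqp5, which had 0 counts in the 3 E14.5 libraries and 28 in the 3 P0.5 libraries. Kcnj13 rested on 11 counts over the 3 E14.5 epithelium libraries and on 1 to 6 in each fiber group. The sizes of its changes against these groups are therefore uncertain. Of all genes, 6.75% were called higher from E16.5 to E18.5. Kcnj13 and Aqp1 rose in that step (4.36 and 3.90). So did Gja1, all 7 pigment and 9 of 10 ciliary margin markers, for example Tyrp1 (5.20) and Optc (5.51). The part of those cells in Kcnj13 and Aqp1 was not tested. In fiber Aqp5 (3.37) and the bicarbonate transporter gene Slc4a4 (1.57) rose over the course, where 6.69% of all genes were called higher.

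The genes whose levels ran most like those of the 2 connexins were sought among 8366 genes by Pearson's r of log2 CPM. These r values describe libraries that share tissue and stage. Over all 24 libraries the nearest to Gja1 were Lpp (0.996), Slc16a1 (0.995), Nedd9 (0.992), Sparcl1 (0.991) and Ext2 (0.990). Slc16a1, which encodes a lactate transporter, was also the nearest within the 12 epithelium libraries (0.995), with means of 56.0 ± 0.93 CPM at E16.5 and 179 ± 2.41 at E18.5 (SD, n = 3), followed by Glul, the glutamine synthetase gene (0.993), and the transcription factor gene Meis1 (0.992). Within the 12 fiber libraries, where Gja1 was low, the nearest were Mien1 (0.925), Laptm4a (0.887) and Mab21l2 (0.881). Mab21l2 had group means of only 2.13 to 3.83 CPM in fiber, against 196 and 140 in epithelium at E18.5 and P0.5. Its r within fiber thus rests on few counts.

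For Gja3 the nearest genes over the 24 libraries were Tmem40 (0.999), the crystallin gene Crybb3 (0.998), Carhsp1 (0.998), Add2 (0.998) and Adam9 (0.998). Tmem40 and Crybb3 had the up and down course of Gja3 in epithelium, with Crybb3 at 1156 ± 169 CPM for E14.5, 1669.7 ± 235 for E16.5, 1210.1 ± 124 for E18.5 and 1636 ± 362 for P0.5 (SD, n = 3). Within epithelium the nearest were Crim1 (0.965), Trak1 (0.961) and Tmem40 (0.959), and within fiber Pacsin3 (0.995), Gabarapl1, an autophagy gene (0.995), and Eaf1 (0.994). Between Gja1 and Gja3 themselves r was -0.944 over the 24 libraries, -0.11 within the 12 epithelium libraries and 0.38 within the 12 fiber libraries.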

How the data were processed

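Counts per gene were deposited by the authors as 1 table of whole numbers for 24 libraries. Per the submitters' processing notes, the mm10 build was used with HTSeq 0.6.1, TopHat2 2.0.13, Cufflinks 2.2.1, Cuffdiff and Trim Galore 0.4.1, with no step assigned to each tool. Per the labels' protocols the libraries were stranded, with the counter's strand setting not given in the sources used here. Genes were filtered with filterByExpr (minimum count 10, minimum total 15), which left 12427 of 12611. They were fitted with edgeR 4.0.16 in R 4.3.3 (glmQLFit, glmQLFTest, TMM) over all 8 groups with 16 residual degrees of freedom, giving 14 comparisons, and p-values were adjusted over all genes tested. TMM factors ran from 1.41 to 1.58 in epithelium and from 0.442 to 0.869 in fiber. Of the gene symbols, 12340 matched 1 gene of GENCODE M21. The fit was tested on simulated data. Replicates of a group differed by more than sampling noise (chi-square per degree of freedom 4.01 to 334). Same-numbered libraries of 2 tissues at 1 stage deviated together weakly at most (r of -0.07 to 0.22 over 12 pairs, median 0.055, 3 over 0.1). Numbers were not taken as pairs, though sharing of animals is not excluded by this. Named were Gja1 and Gja3, all reported rows of the connexin and pannexin family, the members of 2 lists with the largest passing changes each way (up to 4) plus Tjp1, Mip, Cdh1 and Cdh2, and the genes most like each connexin (5 over all libraries, 3 within a tissue, mean of at least 10 CPM). The same 8366 genes met this minimum in every search, so it need not hold within a single tissue. The connexins and the lists were chosen with earlier results of these data known. Genes named beside markers were chosen after their values were seen. One gene of the family and 2 of the lists are not reported here. Alternatives were DESeq2 1.42.0, other scalings (also with Rn45s or the library rich in it left out), no filter, a replicate block, the groups compared alone and leaving out each library.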

Additional observations from a re-analysis of the deposited data

Results flagged for a closer look

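The change from E14.5 to P0.5 differed between the tissues for both connexin genes by edgeR's interaction test. For Gja1 the log2 change in fiber minus that in epithelium was -1.32 (adjusted p = 0.00119), with 0.41 in fiber and 1.73 in epithelium. For Gja3 it was 0.35 (adjusted p = 0.0019), with 0.72 in fiber and 0.37 in epithelium, and with plain library size it was -0.29 (all edgeR).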

How the results depend on the processing

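The difference between fiber and epithelium of both genes, and the rise of Gja1 in epithelium, kept their direction and call under every alternative run. With plain library size the log2 changes of Gja1 in fiber turned to -0.14 (P0.5 against E14.5), -0.080 (E16.5 against E14.5) and -0.16 (E18.5 against E16.5). That of Gja3 in fiber turned to -0.053 (E18.5 against E16.5), its interaction to -0.29, and the number of family genes lower in fiber from 3 to 6. The number of all genes called lower in fiber went from 2758 to 7423 of the 12427 tested. With Rn45s left out of the library size, chosen after seeing the data, Gja1 in fiber was -0.17 (P0.5 against E14.5), -0.035 (E16.5 against E14.5), -0.080 (E18.5 against E16.5) and -0.052 (P0.5 against E18.5), the Gja3 interaction -0.20 and the family count 6. Under plain library size and with E18.5 fiber replicate 2 left out, also chosen after seeing the data, these were -0.14, -0.090 and -0.090 for the first 3, -0.29 and 6, and Gja3 in fiber from E16.5 to E18.5 was 0.066. With library size without crystallins, likewise chosen after seeing the data, Gja1 in fiber turned to -0.016 (E16.5 against E14.5) and -0.020 (E18.5 against E16.5). Leaving out each library gave -0.20 to 0.33 for Gja1 in fiber from E14.5 to E16.5, negative without E14.5 fiber replicate 3 or E16.5 fiber replicate 1. From E18.5 to P0.5 it gave -0.29 to 0.28, negative without E18.5 fiber replicate 1 or P0.5 fiber replicate 2. The cause was not tested. With the replicate block the mean change was -4.96 for Gja1 and 2.82 for Gja3, and it changed no call. The groups compared alone could not be used for the mean of 4 stages or the interaction. In fiber the depth of Gja1, 86 to 231 counts a library, limits what can be resolved.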
